A study of Mus musculus with 9 samples.

Results

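The 10 genes described here encode the signalling part of the T cell receptor complex and its coreceptors: Cd3d, Cd3e, Cd3g, Cd247, Cd8a, Cd8b1, Cd4, Lck, Zap70 and Lat. They were taken by symbol from a table of 45535 rows that carry a gene symbol, each matched 1 row, and all 10 were among the 18202 genes tested. The samples were lung cells of C57BL/6J mice given bleomycin, a drug that injures the lung and is used to model fibrosis, for 7 days. Cells carrying CD103, an integrin chain encoded by Itgae, were taken from collagenase-digested lung with magnetic beads and are labelled dendritic cells. RNA was taken at once in 5 samples (before culture). In the other 4 it was taken once the cells had spent 18 h in RPMI with 10% FBS and 1% penicillin and streptomycin (after culture). Every sample came from treated mice of this strain. The labels name neither age nor sex, do not say how many mice gave a sample, and call the extracted RNA total lung RNA.

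T cells recognise antigen through receptor chains that have almost no intracellular part of their own. The CD3 chains and the zeta chain carry the signalling motifs, the coreceptors CD4 and CD8 bind the presenting molecule and bring in the kinase LCK, and LCK phosphorylates the chains so that the kinase ZAP70 can dock and phosphorylate the adaptor LAT. Dendritic cells are the partners that present antigen to this receptor and are not known to build it, although some dendritic cells carry CD8 alpha or CD4. Natural killer (NK) cells also use the zeta chain, LCK, ZAP70 and LAT, mast cells and platelets use LAT, and many T cells that live in epithelia carry CD103.

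The CD3 genes lie side by side, so their promoters are shown first. Cd3g, Cd3d and Cd3e fill 40.1 kb of chromosome 9 (GRCm38), from 44969572 to 45009627. Cd3g and Cd3d are read away from each other from starts 1355 bases apart, and the starts of Cd3d and Cd3e are 27841 bases apart. The windows below hold 250 bases before and 50 after the annotated start, from RefSeq on GRCm38.p6, 5′ to 3′ on the strand of the gene. They are chr9:44980382-44980681 (minus strand) for Cd3g, chr9:44981536-44981835 (plus strand) for Cd3d and chr9:45009562-45009861 (minus strand) for Cd3e. Capitals mark GGAA on either strand, the core of sites for ETS factors.
Cd3g: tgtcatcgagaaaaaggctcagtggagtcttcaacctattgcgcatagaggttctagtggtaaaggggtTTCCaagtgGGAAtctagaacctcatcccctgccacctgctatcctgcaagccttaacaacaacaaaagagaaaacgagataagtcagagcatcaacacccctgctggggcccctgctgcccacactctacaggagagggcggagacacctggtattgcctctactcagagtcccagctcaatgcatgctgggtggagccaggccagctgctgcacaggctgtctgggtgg
Cd3d: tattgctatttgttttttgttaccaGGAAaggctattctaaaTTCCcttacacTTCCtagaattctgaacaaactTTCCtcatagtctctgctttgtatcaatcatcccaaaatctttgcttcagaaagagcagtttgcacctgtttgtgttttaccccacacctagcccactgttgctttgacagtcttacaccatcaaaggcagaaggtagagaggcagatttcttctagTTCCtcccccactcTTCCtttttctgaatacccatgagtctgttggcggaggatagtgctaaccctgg
Cd3e: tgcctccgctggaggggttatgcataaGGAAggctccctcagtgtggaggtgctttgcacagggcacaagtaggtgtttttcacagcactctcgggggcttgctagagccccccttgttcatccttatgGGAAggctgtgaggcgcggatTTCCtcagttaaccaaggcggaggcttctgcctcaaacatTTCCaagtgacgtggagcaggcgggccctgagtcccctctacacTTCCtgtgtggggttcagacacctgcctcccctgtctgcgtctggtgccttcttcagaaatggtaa
GGAA, read on both strands, occurred 2 times in the Cd3g window, 6 times in Cd3d and 5 times in Cd3e, and 96% of 32851 RefSeq promoter windows hold it. The E-box CANNTG occurred 4, 1 and 2 times, against 72.3% of all windows with at least 1. CTTTGA, the core of TCF and LEF sites, was in the Cd3d window 2 times and is in 16% of all windows. Neither TGTGGT, a RUNX core (16.8% of windows), nor TATAAA (13.6%) was found in these 3 windows. The motifs were searched on both strands and their matches may overlap, and a match describes letters only. RefSeq windows were at hand for 8 of the 10 genes.

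All 10 genes had reads in every sample, from 134 to 2118 per gene and sample. Named rows held 14.7 to 35.3 M reads per sample, and counting error alone gives coefficients of variation of 2.31 to 6.05% for these genes. Levels are normalized read counts, the gene's reads divided by 1 factor per sample, as the authors deposited them. Markers of the labelled cell type were read as well: before culture Itgae stood at 18140 ± 1537 and Xcr1, a chemokine receptor of type 1 conventional dendritic cells (cDC1), at 5836 ± 781 (SD, n = 5). Itgae encodes the chain by which the cells were taken, so its level cannot check the label. Genes of other cells had reads too. Before culture the monocyte and macrophage gene Csf1r stood at 11800 ± 2414 and the neutrophil gene Csf3r at 5352 ± 1265 (SD, n = 5). After culture Itgae stood at 1727 ± 335 and Xcr1 at 114 ± 32.6 (SD, n = 4). Another cDC1 marker, the transcription factor gene Batf3, went the other way. It stood at 511 ± 95.4 before (SD, n = 5) and 746 ± 96.4 after culture (SD, n = 4). In bulk RNA, fewer cells of a type and less RNA per cell cannot be told apart.

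Most of the 10 genes changed little between the groups. Of the 10, 1 rose (Cd3g), 2 fell (Cd4 and Zap70) and 7 did not pass the test at a limma adjusted p of 0.05. Over all tested genes, 34.2% passed the test as higher and 34.6% as lower. The median size of the change was 0.128 on the log2 scale for the 10 genes and 0.635 for all tested genes. Even the change of Zap70, 0.588 in size, was exceeded by 52.7% of all tested genes. Their summed level was 8029 ± 485 before (SD, n = 5) and 8157 ± 1011 after culture (SD, n = 4). Only Zap70 had groups that did not overlap, whereas 28.7% of tested genes did not overlap and were higher after culture and 28.6% did not overlap and were lower.

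**Figure D1:**
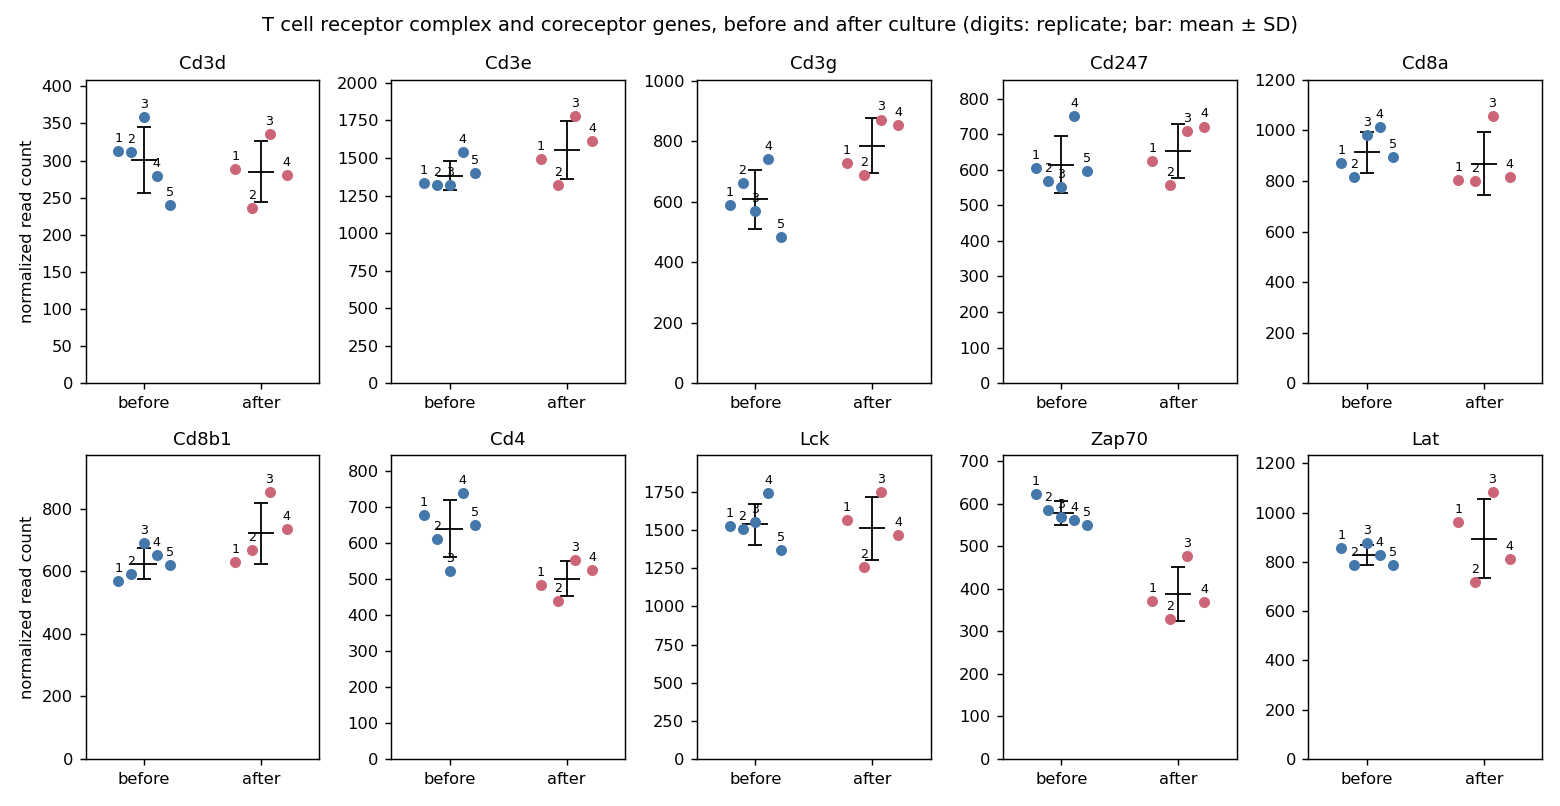
Normalized read count of each of the 10 genes (vertical axes, starting at 0) in the 5 samples before and the 4 after culture; points are samples with their replicate number, and the bar is the mean ± SD. Zap70 is the gene whose groups do not overlap, and after culture replicate 3 is highest in 9 of the 10 panels.

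The CD3 chains pair with one another and carry the receptor to the cell surface. Cd3e, the epsilon chain, stood at 1336, 1317, 1320, 1543 and 1400 in replicates 1 to 5 before culture and at 1496, 1320, 1780 and 1610 in replicates 1 to 4 after culture. The groups overlapped, with replicates 3 and 4 after culture the highest. Its mean went from 1383 ± 95.2 (SD, n = 5) to 1552 ± 193 (SD, n = 4), a log2 fold change of 0.16 with a standard error (SE) of 0.0907 and a 95% interval of -0.04 to 0.36 (limma adjusted p = 0.133). With upper quartile scaling the value was 0.27 (adjusted p = 0.0252).

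Cd3g, the gamma chain, was the gene that rose. It stood at 588, 661, 569, 742 and 483 before culture and at 728, 688, 872 and 853 after culture. Replicate 4 before culture lay above 2 of the cultured samples, and the other 4 lay below all of them. The mean rose from 609 ± 97.6 (SD, n = 5) to 785 ± 90.8 (SD, n = 4), a log2 fold change of 0.37 (SE 0.122, 95% interval 0.11 to 0.64, limma adjusted p = 0.0147). Cd3g also has the lowest GC content of the 10 genes, 38.5% of its longest transcript. With each sample's trend over GC content and transcript length removed, an alternative added after seeing the data, its log2 fold change was -0.16 (adjusted p = 0.134), so both the call and the direction depend on that correction.

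Cd3d, the delta chain, showed no such rise. It stood at 312, 312, 359, 279.6 and 239.9 before culture and at 288, 236.5, 336 and 280.5 after culture, with overlapping groups. Its log2 fold change was -0.07 (SE 0.135, 95% interval -0.36 to 0.22, limma adjusted p = 0.645). Cd3d had the fewest reads of the 10 genes and the widest standard error. Read per kilobase of the longest protein-coding transcript, the CD3 chains differed in level: before culture Cd3e stood at 946 ± 65.1, Cd3g at 595 ± 95.4 and Cd3d at 186 ± 27.3 normalized counts per kb (SD, n = 5). After culture they kept that order, at 1061 ± 132, 768 ± 88.8 and 176 ± 25.1 (SD, n = 4). In the same order these transcripts hold 1462, 1023 and 1617 bases, and all exons of each gene 4080, 3269 and 1815. The size of the gaps depends on the length used.

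Cd247 encodes the zeta chain, which carries the most signalling motifs of the complex. It stood at 605, 569, 552, 751 and 596 before culture and at 624, 558, 708 and 722 after culture. Replicate 4 before culture was the highest of all 9 samples and the groups overlapped. The log2 fold change was 0.09 (SE 0.110, 95% interval -0.15 to 0.32, limma adjusted p = 0.492). Of the exon bases of Cd247, 56.4% are overlapped on the opposite strand by Pou2f1, which encodes the transcription factor OCT1. Pou2f1 was higher after culture, 1775 ± 118 (SD, n = 4) against 1484 ± 113 (SD, n = 5), a log2 fold change of 0.26 (limma adjusted p = 0.00932). Whether reads were counted by strand is not given in the sources used here, so reads of the 2 genes cannot be told apart in the overlap.

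The coreceptors did not move together. Cd4, the coreceptor of helper T cells, stood at 678, 611, 522, 737 and 649.8 before culture and at 484, 439.7, 552 and 525 after culture. Replicate 3 before culture lay within the range of the cultured samples, and the other 4 lay above it. Cd4 fell from 639.6 ± 80.4 (SD, n = 5) to 500.2 ± 49.1 (SD, n = 4), a log2 fold change of -0.35 (SE 0.109, 95% interval -0.59 to -0.11, limma adjusted p = 0.0115). The call was lost with upper quartile scaling (-0.24, adjusted p = 0.0804), which moved the median of all tested genes to 0.11, with quantile normalization (-0.27, adjusted p = 0.0625) and with the correction for GC content and length (-0.06, adjusted p = 0.656).

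Cd8a and Cd8b1 encode the alpha and beta chains of CD8, the coreceptor of cytotoxic T cells, and lie in the same stretch of chromosome 6. Cd8a stood at 869, 816, 982, 1012 and 893 before culture and at 804, 798, 1056 and 816 after culture. Replicates 1 and 2 after culture lay below every sample before culture, and replicate 4 lay at the low end of the range before culture. Replicate 3 after culture lay above every other sample. Its log2 fold change was -0.08 (SE 0.101, 95% interval -0.30 to 0.14, limma adjusted p = 0.501).

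Cd8b1, which unlike Cd8a is not a known marker of dendritic cell subsets, did not pass the test as deposited. It stood at 568, 592, 691, 650.3 and 619 before culture and at 629, 668, 852 and 734 after culture, with overlapping groups. The log2 fold change was 0.20 (SE 0.10, 95% interval -0.02 to 0.42, limma adjusted p = 0.0905), and it passed the threshold with upper quartile scaling (0.31, adjusted p = 0.0151), with quantile normalization (0.27, adjusted p = 0.0337) and with the correction for GC content and length (0.36, adjusted p = 0.00699). Per kb of transcript, Cd8b1 stood above Cd8a, at 421 ± 32.8 against 292 ± 25.9 before culture (SD, n = 5) and 486 ± 65.8 against 278 ± 40.1 after it (SD, n = 4).

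Zap70 made the largest change of the 10 genes. The kinase it encodes docks on the phosphorylated chains and is used by T and NK cells. It stood at 622, 585, 569, 561 and 549.5 before culture and at 372, 329, 478 and 369.5 after culture, so that every cultured sample lay below every sample before culture. The mean fell from 577 ± 28.1 (SD, n = 5) to 387 ± 63.6 (SD, n = 4), a log2 fold change of -0.59 (SE 0.107, 95% interval -0.82 to -0.36, limma adjusted p = 2.60e-04). Zap70 has the highest GC content of the 10 genes, 59.6%. After correction for GC content and length its log2 fold change was 0.06 (adjusted p = 0.664), and in all other alternatives the fall passed the threshold.

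Lck, the kinase that starts the cascade, had the highest mean count of the 10 before culture. It stood at 1526, 1508, 1554, 1743 and 1369 before culture and at 1566, 1259, 1753 and 1472 after culture. The 2 groups covered nearly the same range. The log2 fold change was -0.03 (SE 0.0986, 95% interval -0.24 to 0.18, limma adjusted p = 0.789), and 0.35 after correction for GC content and length (adjusted p = 0.0116).

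Lat, the adaptor on which the downstream signalling proteins assemble, spread out in culture. It stood at 855, 788, 878, 828 and 786 before culture and at 960.2, 719.5, 1082 and 814 after culture. The cultured samples included both the lowest and the highest of the 9. The log2 fold change was 0.10 (SE 0.109, 95% interval -0.14 to 0.33, limma adjusted p = 0.450), and 0.63 after correction for GC content and length (adjusted p = 2.57e-04).

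**Figure D2:**
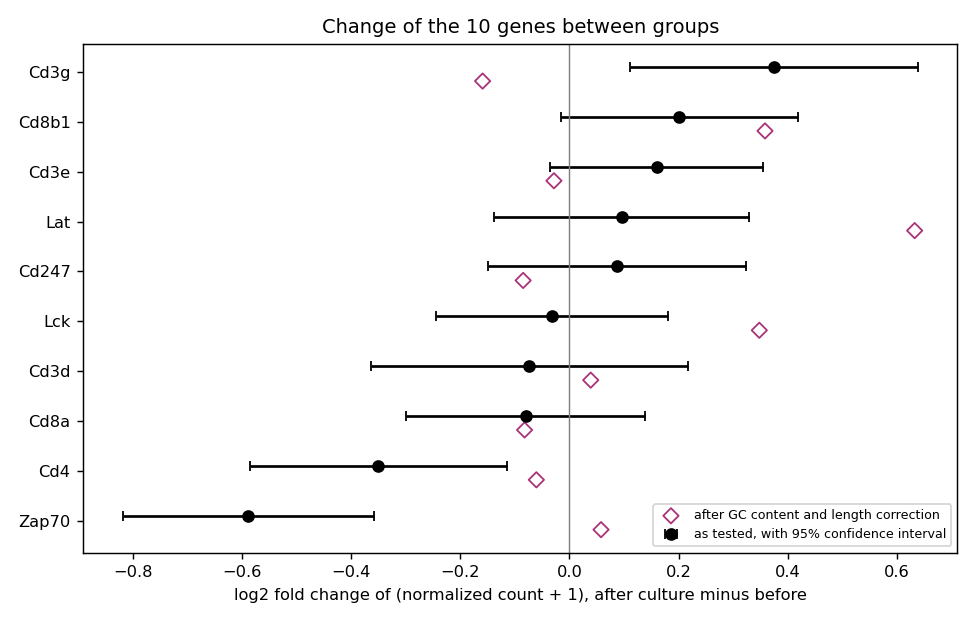
Log2 fold change of each gene, after culture minus before (horizontal axis), with its 95% interval (filled points) and after correction for GC content and transcript length (open diamonds). The filled points run from -0.59 for Zap70 to 0.37 for Cd3g, and with the correction no gene is called lower and Cd8b1, Lck and Lat are called higher.

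GC content moved with the changes over the whole table. The median log2 fold change was 0.58 for the 1285 genes with a GC content of at most 40% and -0.43 for the 3669 genes above 55%. Among the 10 genes, Pearson's r between GC content and log2 fold change was -0.69 and Spearman's rho -0.53, a description over genes that share libraries. Over 17756 genes r was -0.26 and rho -0.32. With the correction, 3 of the 10 genes were called higher (Cd8b1, Lck and Lat) and 0 lower, while the median of all tested genes moved to 0.13. Which of these scales is nearer to RNA abundance was not tested.

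The next comparison asked whether the other 7 genes changed by other amounts than the CD3 chains. For each sample the mean log2(normalized count + 1) of Cd3d, Cd3e and Cd3g was subtracted. Against the CD3 mean, Zap70 was lower after culture by a log2 difference of -0.74 (SE 0.0719), Cd4 by -0.50 (SE 0.0992) and Lck by -0.19 (SE 0.0461). In each of the 3 the groups did not overlap (two-sided exact permutation test, p = 0.0159, the smallest this design allows, and 0.037 adjusted over the 7 comparisons). Lck was 1.29 above the CD3 mean before culture and 1.10 above it after. The CD3 genes moved apart, with log2 fold changes of -0.07 for Cd3d, 0.16 for Cd3e and 0.37 for Cd3g. Lck itself was at -0.03, so its difference is from their mean, and Lck fell no further than Cd3d. Cd8a differed by -0.23 (exact permutation p = 0.0635, adjusted 0.111). Cd247, Lat and Cd8b1 differed by -0.07, -0.06 and 0.05, with exact permutation p from 0.476 to 0.587.

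These differences too depended on GC content. With the correction for GC content and length, Zap70 stood 0.11 above the CD3 mean in its change (exact permutation, adjusted p = 0.50) and Cd4 -0.01 (adjusted p = 0.984). Lck then stood at 0.40, Cd8b1 at 0.41 and Lat at 0.68 (exact permutation, adjusted p = 0.037 for each).

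Within a group, most of the 10 genes deviated in the same samples. After culture, replicate 3 was the highest sample in 9 of the 10 genes and replicate 2 the lowest in 9. Among 11786 tested genes with a mean of at least 100, the same 2 samples stood apart the other way: replicate 3 was lowest in 43.8% and highest in 23.9%, and replicate 2 was highest in 41.5% and lowest in 22.4%. The macrophage gene Adgre1, for one, was highest in replicate 2 after culture (5918) and lowest in replicate 3 (2749). Of 11 T cell markers that are not among the 10 genes, replicate 3 was highest in 11 and replicate 2 lowest in 10, and their summed level ran from 6029 to 8603 after culture. Before culture, replicate 4 was highest in 6 of the 10 genes and in 8 of the 11 markers, and replicate 5, the sample with fewest reads, was lowest in 5 and in 5. The pattern was not particular to T cell markers. Every NK cell marker examined was highest before culture in replicate 4, and all but Prf1 were highest after culture in replicate 3. Ncr1, for one, stood at 345.7 and 51.86 in these samples, and Prf1 was highest after culture in replicate 2 (104.6). The part of T cell number or of other cells in this spread was not tested.

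**Figure D3:**
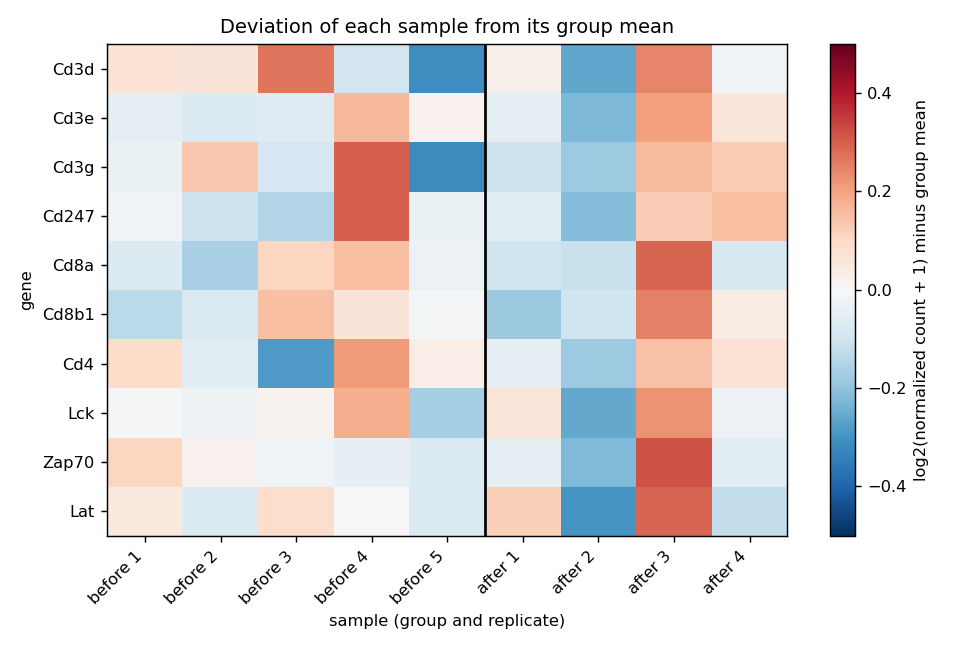
Deviation of log2(normalized count + 1) from the mean of its own group, for the 10 genes (rows) in the 9 samples (columns); red is above and blue below the mean. After culture replicate 3 is red and replicate 2 blue in every row, with CD3 means of 0.20 and -0.22.

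Among cultured samples most of the 10 genes had a wider spread, a difference that was not tested. Cd3d, Cd3g, Cd247 and Cd4 had a narrower one. The median coefficient of variation of the 10 genes was 8.77% before and 13.6% after culture, and that of 5167 genes of like level, with means from 294 to 1528, was 9.57% and 10.5%. Over the 9 deviations from group means, Lck followed the CD3 mean most closely of the other 7 genes (Pearson's r = 0.91) and Cd4 least (0.46). Zap70 came to 0.74, Lat to 0.69, Cd247 to 0.65, Cd8a to 0.63 and Cd8b1 to 0.61. Among 11776 other genes the closest were Ifitm10 (0.97), Plxnb1 (0.97), Apol7e (0.97), Tia1 (0.96) and Trim34a (0.95). These r describe 9 samples, and the highest of so many candidates are high by selection.

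The receptor chains themselves moved in different directions. Trac encodes the constant region of the alpha chain, and Trbc1 and Trbc2 those of the beta chain. Trac stood at 1055, 1032, 1105, 1347 and 1208 before culture and at 795, 829, 938 and 854 after culture, without overlap. It fell by 0.42 on the log2 scale (SE 0.0918, limma adjusted p = 0.00106), and by 0.48 with the correction for GC content and length. Trbc1 and Trbc2, which share 41.1 and 44.0% of their 50-base windows with each other so that their reads may be split uncertainly, had log2 fold changes of -0.11 (limma adjusted p = 0.588) and 0.01 (adjusted p = 0.915).

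The chains of the gamma-delta receptor all rose. Trdc, the delta constant region, stood at 172, 217, 199, 299.6 and 150.4 before culture and at 409.9, 343, 459 and 332 after culture. Trgc1, a gamma constant region, stood at 146, 137, 163, 208 and 147 before and at 374.5, 279.8, 498 and 361 after culture. In both genes every cultured sample lay above every sample before culture. The log2 fold changes were 0.92 for Trdc (SE 0.179, limma adjusted p = 4.50e-04), 1.22 for Trgc1 (SE 0.167, adjusted p = 2.15e-05), 1.14 for Trgc4 (adjusted p = 4.26e-05) and 0.54 for Trgc2 (adjusted p = 0.00445). Corrected for GC content and length, the first 3 were still called, at 0.92, 0.89 and 0.78, and Trgc2 was not, at 0.18 (adjusted p = 0.222). Trgc1 shares 34.2% and Trgc2 25.4% of their windows with other gamma constant regions.

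Variable segments, the part of a receptor gene that meets the antigen, were summed as a measure apart from the constant regions. Of 178 rows for such segments, 112 had reads before culture and 112 after, and 10 of the 29 that could be tested were higher and 0 lower by limma, against 34.2% higher and 34.6% lower over all tested genes. Summed over all of them, the samples before culture held 1085, 1111, 1105, 1504 and 1099 normalized counts and the cultured samples 1513, 1425, 1905 and 1547. Replicate 4 before culture lay among the cultured samples, and the ratio of means was 1.35 (two-sided exact permutation test, p = 0.0317). The call was lost when any of 7 single samples was left out (exact permutation p = 0.0571 or 0.0714) and held without before culture replicate 4 or after culture replicate 2. Without both libraries numbered 4 (before culture replicate 4 and after culture replicate 3), the log2 ratio was 0.44 (exact permutation p = 0.0571, the smallest p with those samples).

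By chain, gamma segments came to 2.52 and delta segments to 1.38 times their level before culture, with no overlap (exact permutation p = 0.0159 and 0.0318 adjusted over the 4 chains for each). The gaps were narrow. The lowest cultured sample held 106.1 gamma counts, against 104.6 in before culture replicate 4. For delta the same values were 78.3 and 77.84. In these samples 1 read is worth 0.758 to 0.837 counts. Beta segments came to 1.43 times (exact permutation p = 0.0476, adjusted 0.0635) and alpha segments to 0.868 times (p = 0.222), both with overlapping groups. The gamma segments rested on 44 to 311 reads per sample, and those of the delta chain on 34 to 133. The largest row of each sample held 34.1 to 61.6% of its gamma sum, 40 to 84.9% of its delta sum and 10.9 to 17.0% of its beta sum. Over all samples together the largest beta row was Trbv13-2. The sums by chain were not run under the alternatives.

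**Figure D4:**
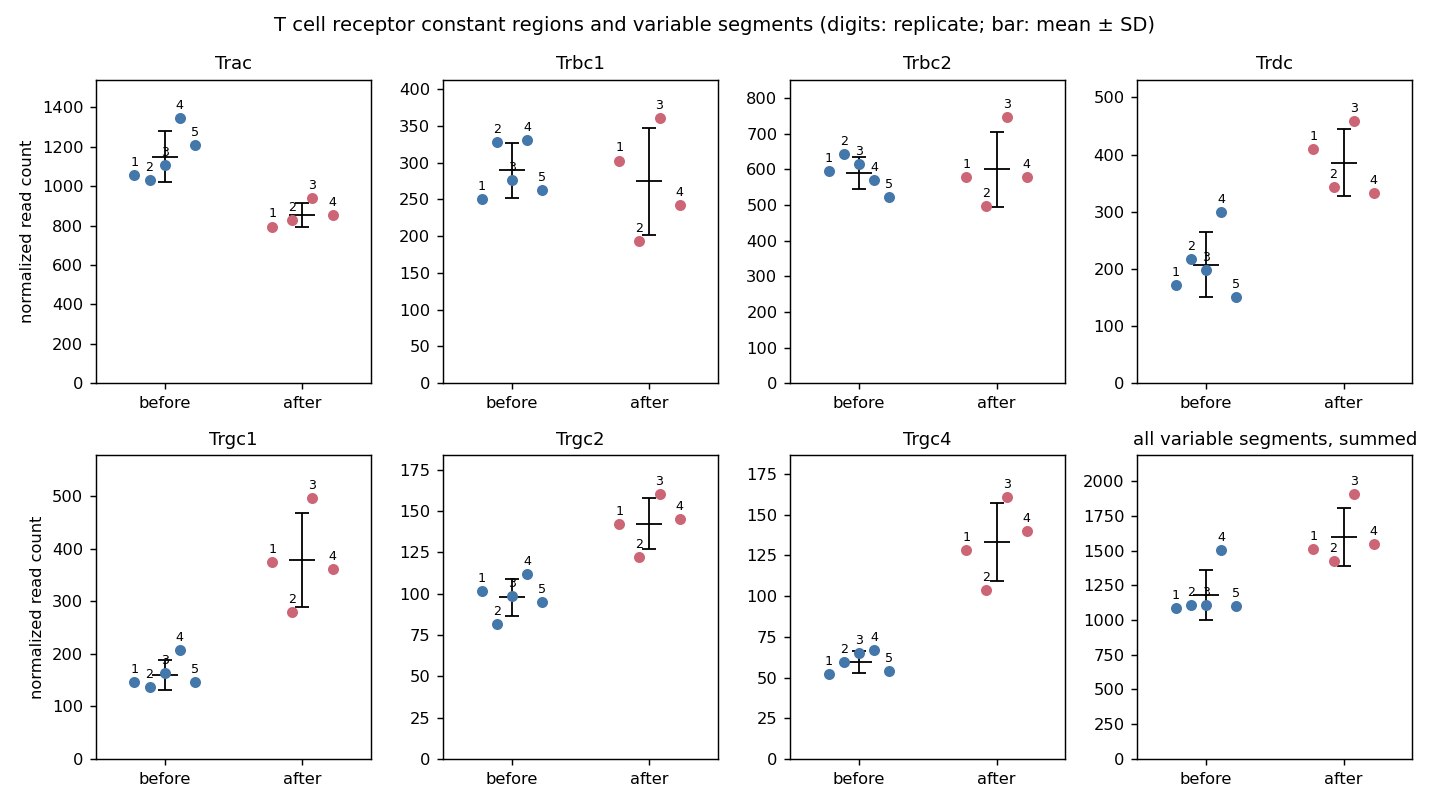
Normalized read count (vertical axes, starting at 0) of the receptor constant regions and of all variable segments summed, in the samples before and after culture, with replicate numbers and mean ± SD. Trac is lower and Trdc, Trgc1, Trgc2 and Trgc4 are higher in every cultured sample, whereas the variable segment sum of before culture replicate 4, at 1504, lies among the cultured samples.

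The other genes of the pathway were counted in fixed lists. Of 18 genes of receptor-proximal signalling, 5 rose and 8 fell by limma, with a median log2 fold change of -0.21. The count of 5 came to 3 when any of 6 single samples was left out (before culture replicates 1, 2, 3 and 5, after culture replicates 1 and 3) and ran up to 7 with upper quartile scaling. Fyn, a kinase related to LCK that is also expressed outside T cells, fell from 4620 ± 128 (SD, n = 5) to 2793 ± 83.3 (SD, n = 4), a log2 fold change of -0.73 (limma adjusted p = 1.75e-07). Nck1, an adaptor that binds CD3 epsilon, rose by 1.00 on the log2 scale (adjusted p = 3.78e-07).

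Of 16 negative regulators, 3 rose and 6 fell, with a median of -0.12, and 6 rose and 5 fell with the correction for GC content and length. Cblb, a ubiquitin ligase that restrains receptor signalling, rose from 4065 ± 363 (SD, n = 5) to 11850 ± 1130 (SD, n = 4), a log2 fold change of 1.54 (limma adjusted p = 3.64e-09). Sla, an adaptor that promotes breakdown of the receptor, fell by 2.03 (adjusted p = 1.75e-11). Cd5 and Cd6, related surface receptors of T cells, fell by 0.66 (adjusted p = 8.08e-06) and 0.77 (adjusted p = 7.54e-07), and Cd5 was not called with the correction for GC content and length (-0.12, adjusted p = 0.255).

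Of 13 surface and costimulatory genes, 3 rose, 4 fell and 6, among them Cd28, Icos and Cd27, did not pass the test. Il7r, the interleukin-7 receptor chain, which activated dendritic cells are known to carry as well, rose from 2611 ± 413 (SD, n = 5) to 13280 ± 1113 (SD, n = 4), a log2 fold change of 2.36 (limma adjusted p = 3.84e-10). Pdcd1, which encodes the inhibitory receptor PD-1, rose by 2.02 (adjusted p = 2.65e-09), and Ctla4, another inhibitory receptor, fell by 1.93 (adjusted p = 9.29e-09). Of 10 transcription factors of the T lineage, 2 rose, Tcf7 by 1.18 (adjusted p = 4.97e-08) and Lef1 by 0.57 (adjusted p = 7.28e-04), and 4 fell, among them Runx3 by 1.80 (adjusted p = 6.42e-09) and Gata3 by 0.72 (adjusted p = 1.66e-05). Of 9 genes that serve like roles in myeloid cells, Blnk rose by 0.87 (adjusted p = 2.11e-04), 3 fell, among them the kinases Lyn and Fgr, and 5 did not pass, among them Syk, the relative of Zap70, at 0.08 (adjusted p = 0.547). Over all 73 pathway genes 18 rose and 26 fell, against the shares of 34.2% and 34.6% over all genes, and the median was -0.11. With the correction for GC content and length, 4 of the transcription factors and 2 of the myeloid genes were called higher.

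Marker lists of the cells that could carry these genes moved in different directions. Of 11 T cell markers, 4 fell and 1, Themis, passed as higher (log2 fold change 0.45, limma adjusted p = 0.0442). That call was lost in 11 of 23 alternatives, 7 of them with 1 sample left out (all but before culture replicate 4 and after culture replicate 2), and Themis was at 0.02 with the correction for GC content and length (adjusted p = 0.878). The summed level of the 11 was 8281 to 10410 before and 6029 to 8603 after culture. Of 5 gamma-delta markers 4 rose, with summed levels of 1004 to 1528 before and 1149 to 1669 after, and Sox13, a transcription factor, fell by 2.60 (limma adjusted p = 5.94e-10). Of 10 NK cell markers 0 rose and 8 fell, with a median of -1.99, from a sum of 2114 to 4167 down to one of 754 to 1483. Ncr1, which defines NK cells, stood at 185 ± 93.6 before (SD, n = 5) and 33.8 ± 16.1 after culture (SD, n = 4). Of 9 cDC1 markers 8 fell and 1, Batf3, rose by 0.56 (limma adjusted p = 0.00387). The median of this list was -3.33, with summed levels of 133700 to 161300 before and 17910 to 19910 after. No gene of these lists was at 0 in all samples of a group. The part of each cell type in the levels of the 10 genes was not tested.

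**Figure D5:**
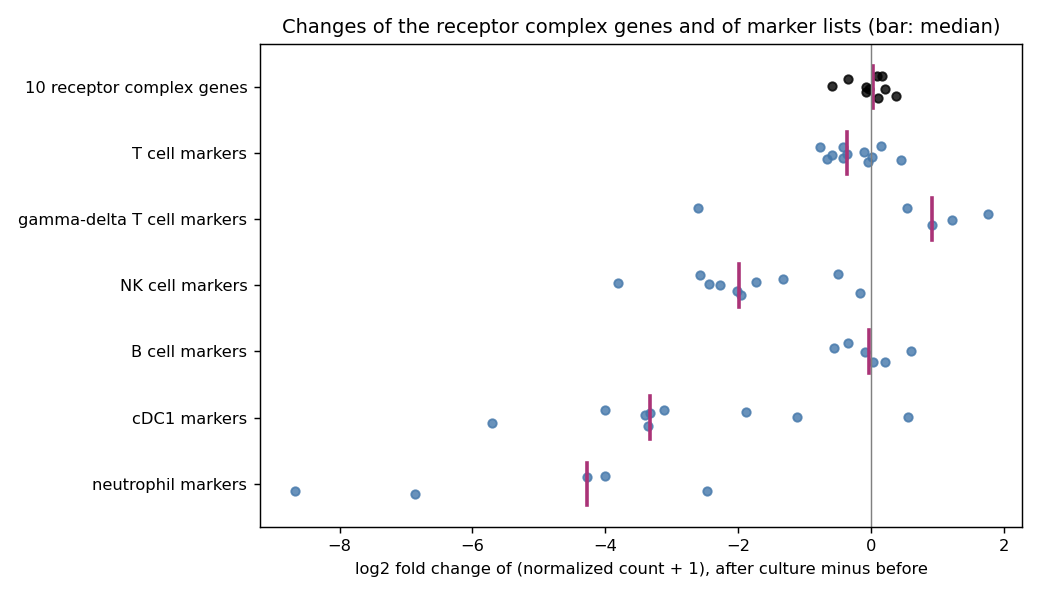
Log2 fold change, after culture minus before (horizontal axis), of the 10 receptor complex genes and of the tested genes of 6 marker lists (rows); each point is a gene, the vertical position within a row is arbitrary and the bar is the median. The 10 genes lie between -0.59 and 0.37, while the NK cell, cDC1 and neutrophil medians are -1.99, -3.33 and -4.28.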

How the data were processed

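The authors deposited normalized read counts per gene, a signal; the submitters' processing notes name DESeq2 and GRCm38, and the aligner, counter and strandedness are not given in the sources used here. All values were whole multiples of 1 step per sample (100%, relative tolerance 1e-06), so whole reads were recovered. The 3782 rows without a symbol (3.87 to 10.9% of reads) were left out. Genes with a mean of at least 10 were fitted on log2(value + 1) with limma 3.58.1 (R 4.3.3; group only, two-sided, moderated with a trend), with Benjamini-Hochberg adjustment over all tested genes. Single values were compared by exact permutation over the 126 splits. Samples were grouped by title; separate animals are not stated, so the p-values measure the spread between these samples. No molecular identifiers are named, so counting errors cover counting only.

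The genes and lists were chosen with earlier results of these data known. Named genes are the 10 genes, all receptor chains, up to 3 genes per list with the smallest adjusted p, genes called against their list's median, and the 5 genes most like the CD3 mean; not all are printed, some genes of the lists are not reported here by name, and other genes named were chosen after their values were seen. All 139 list genes were matched. GC content, length and overlaps came from the GRCm38 gene models. On counts simulated for this comparison at a dispersion of 0.02, limma recovered 90 of 95 genes changed 2-fold among 18220 tested, and 30 of 95 among 18146 at 0.1. Far fewer genes were changed there than were called in these data. Changes below 2-fold, such as those of the 10 genes, were not simulated, so their recovery is not known. Alternatives used edgeR 4.0.16, DESeq2 1.42.0 and mgcv 1.9.3 (GC content and length).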

Additional observations from a re-analysis of the deposited data

Results flagged for a closer look

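The lowest or highest sample stood far from the rest of its group, by Dixon's 95% criterion, in 14 of 162 groups of values tested; chance flags about 1 in 20. Of these, 9 were in before culture replicate 4. Among the 10 genes there were 2: Cd247 was high in before culture replicate 4 (normalized count 750.8, against 552 to 604.6 in the others) and Cd8a in after culture replicate 3 (1056, against 798.3 to 815.7).

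In before culture replicate 4 the T cell genes Cd28 (1384), Themis (554.9) and Cd96 (405.9) were also high, as were Prf1 (862.9), the perforin gene of cytotoxic cells, Cma1 (44.36), and the summed variable segments (1504, against 1085 to 1111). In the same sample the dendritic cell markers Mgl2 (2989) and Batf3 (347.4) were low. Mgl2 is a marker of type 2 dendritic cells and Batf3 of cDC1, and the other cDC1 markers were mixed. Xcr1 (7128), Clec9a (3208), Cadm1 (2236) and Tlr3 (3159) were highest before culture in that sample, and Irf8 (15860) was lowest. Itgae, Wdfy4 and Naaa lay between. These other cDC1 values were not among those flagged. Before culture replicate 2 was high in the B cell genes Blk (455.4) and Pax5 (1447) and low in Gata3 (615). After culture replicate 2 was high in Pf4 (1113), a platelet gene. The other platelet genes did not all share this. Among cultured samples Ppbp (303.3) was also highest in that sample. Itga2b (30.33), Gp9 (6.065) and Gp6 (0) were lowest in it, and Gp1bb and Treml1 lay between. Without both libraries numbered 4, the 10 genes were still called 1 higher and 2 lower.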

How the results depend on the processing

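Of the 10 genes, 2 were called higher with quantile normalization, 2 with sample weights, 3 with upper quartile scaling and 3 with the correction for GC content and length, and 1 to 2 when each replicate was left out. The number called lower was 1 with upper quartile scaling, 1 with quantile normalization and 0 with the correction. The calls over all genes moved too. Of 18202 tested genes 6225 were called higher in the main fit, and 7120 with upper quartile scaling. When each replicate was left out, 5807 to 6294 were called higher and 5935 to 6397 lower. The median of all tested genes was 0.11 with upper quartile scaling, 0.10 with quantile normalization and 0.13 with the correction. Cd3e was 0.27 with upper quartile scaling and 0.19 with sample weights (adjusted p = 0.0369), and 0.0911 to 0.23 when each replicate was left out, past the threshold without after culture replicate 2 (adjusted p = 0.0271). Cd8b1 was 0.31 with upper quartile scaling, 0.27 with quantile normalization and 0.36 with the correction, and 0.12 to 0.26 when each replicate was left out, past the threshold without after culture replicate 1 (adjusted p = 0.0449). Cd4 was -0.24, -0.27 and -0.0605 under the same 3 settings. With the correction Cd3g was -0.16, Lck 0.35, Zap70 0.058 and Lat 0.63. TMM scaling, both pseudocounts, both filters, edgeR and DESeq2 each called 1 gene higher and 2 lower.

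Against the CD3 mean, the correction gave Cd8b1 0.41, Cd4 -0.011, Lck 0.40, Zap70 0.11 and Lat 0.68. Leaving out each replicate gave Cd4 -0.58 to -0.45, Lck -0.22 to -0.16, Zap70 -0.78 to -0.70 and Cd8a -0.28 to -0.19; the first 3 then missed the threshold in most cases because fewer samples raise the smallest p. Without both libraries numbered 4 they were -0.46, -0.18 and -0.82 (adjusted p = 0.133). The variable segment sum had a log2 ratio of 0.34 to 0.54 when each replicate was left out and 0.44 without both libraries numbered 4; that ended the call in 8 of 10 such cases (p up to 0.0714). It was otherwise run only with TMM (0.47) and upper quartile scaling (0.54), and not under quantile normalization or the correction.

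With the replicate numbers of the titles as a block, 1 of the 10 genes was called higher and 2 lower, and over all genes 5761 and 5885; with the library numbers as a block, 1 and 2, and 6390 and 6446. Same-numbered samples correlated in their deviations at -0.21 to 0.08 by title and at 0.04 to 0.35 by library number. By library number every one of the 4 cultured samples matched its own number best, a hint from the data and not the design. The exact permutation tests treated all samples as separate and were not run with such pairs. Counting error made up most of the spread of Zap70 before culture (4.38 of 4.87%) and much of that of Lat (3.65 of 4.92%), in coefficients of variation, and less in the other 8 genes.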

Other observations

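Marker genes of other cell types, which the text has not yet described, changed to different degrees, and levels of marker RNA do not count cells. Neutrophil genes fell by a median of 4.28 on the log2 scale: 5 of 5 were lower in every alternative run, from a summed level of 12020 to 20640 to one of 797 to 1644, with S100a9, a calcium-binding alarmin, at -8.68 (limma adjusted p = 3.48e-08). Of 6 B cell markers, 1 rose (Ms4a1, by 0.61, adjusted p = 0.0218), 1 fell (Pax5, by 0.55, adjusted p = 0.0114) and 4 did not pass; with the correction for GC content and length neither of these was called (0.21, adjusted p = 0.317, and -0.22, adjusted p = 0.253), and 0 rose without before culture replicate 1 or 3 or after culture replicate 3 or 4. Of 6 plasmacytoid dendritic cell markers 0 rose and 3 fell.

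For the remaining lists the counts moved with the setting. Of 6 type 2 dendritic cell markers 4 fell and 1 rose, or 2 in 10 of 23 alternatives. Of 7 monocyte and macrophage markers 0 rose and 2 fell, but up to 3 rose with the library numbers as a block, 2 rose without after culture replicate 3 and 4 fell without after culture replicate 2. Of 5 tested platelet genes 2 rose and 2 fell, and with the correction for GC content and length 3 rose and 0 fell. Of 3 tested mast cell genes 1 rose and 1 fell, and the number that fell ran from 0 to 2 over the alternatives.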
